A study of Mus musculus with 4 samples.

Results

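The Egr and Nr4a genes examined here are 7 protein-coding genes, Egr1, Egr2, Egr3, Egr4, Nr4a1, Nr4a2 and Nr4a3, out of 21887 in the annotation. They were taken by name as genes that antigen receptor signals induce, and all 7 were found. H3K27me3, the histone mark laid down by Polycomb complexes over silenced genes, was mapped over them by CUT&Tag, in which an antibody guides a transposase to the mark so that the DNA around it is cut and tagged. The 4 libraries came from sorted germinal center B cells of C57BL/6 mice, 2 labelled wild type (WT) and 2 labelled KO, for Kdm6b B KO. The tissue is labelled spleen, while the extraction protocol speaks of spleens and bone marrows. Kdm6b encodes an enzyme that removes methyl groups from H3K27. Mice of both genotypes received sheep red blood cells, a second dose 5 days later, and were taken at day 12. The series title calls the cells pre-plasma. Not given in the sources used here were the line used to delete Kdm6b, the deleted exons, the age and sex of the mice and the sort markers, and a map of H3K27me3 does not check the genotype.

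The EGR proteins are zinc finger transcription factors, and the NR4A proteins are orphan nuclear receptors that bind DNA without a known natural hormone. Their genes are immediate early genes: within minutes of a signal, existing factors such as SRF on CArG boxes and CREB on cyclic AMP response elements (CRE) switch them on without new protein synthesis. In lymphocytes, antigen receptor signalling is the classical inducer. Nr4a1, which encodes Nur77, is widely used as a reporter of it, Egr2 and Egr3 restrain lymphocyte activation, and NR4A proteins dampen the response to persistent antigen.

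The 7 genes ranged from complete cover by the mark to none. Peaks covered the whole Egr4 body in every library, most of the bodies of Nr4a2 and Egr3, and the 5′ part of Nr4a3. Nr4a1 carried a smaller peak at a start inside the gene, the body of Egr1 was almost bare, and Egr2 had no peak at all. None of the differences between KO and WT passed the test.

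The libraries differed in breadth, which bears on each covered share given here. Peak lists held 80639 to 90417 peaks on chromosomes 1 to 19, X and Y. Covered length came to 144 and 236 Mb for KO replicates 1 and 2, and to 213 and 101 Mb for WT replicates 1 and 2. KO replicate 2 and WT replicate 1 were thus the broad lists and WT replicate 2 the narrow one. Read depth was unknown, because the files hold peaks and not reads. As a check of the labelled cell type, 12 of 16 germinal center B cell marker genes, among them Pax5 and Bcl6, had no marked end in any library, against 48.9% of all genes. Of 12 T cell markers 8 had the same end marked in all 4, against 24.3% of all genes. So had 7 of 12 myeloid, 3 of 7 erythroid and 1 of 6 NK cell markers, and 2 of 7 plasma cell markers, Prdm1 and Sdc1. No marked end was found at 3 of 6 NK cell and 2 of 7 plasma cell markers. An end was called marked where peaks covered at least 25% of a 4 kb window centred on it.

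Upstream sequences are shown for the 5 members with a start in the RefSeq promoter table (GRCm38.p6, the assembly that mm10 denotes), because these windows differ in whether peaks cover them. Each is the 250 bases before the outermost listed start, 5′ to 3′ on the gene's own strand, with the short CRE motif TGACG, on either strand, in capitals. No base of the Egr2 window at chr10:67535249-67535498 (+) was covered in any library, and every base of the Nr4a3 window at chr4:48045055-48045304 (+) was covered in all 4. The Egr4 window at chr6:85513590-85513839 (-) was 100% covered in 3 libraries and 2.0% in WT replicate 2. The Nr4a1 window at chr15:101266596-101266845 (+), upstream of the start inside the gene, was fully covered in both broad lists, 23.2% in KO replicate 1 and 3.2% in WT replicate 2. For the Nr4a2 window at chr2:57124004-57124253 (-), at a dip in the mark, the shares were 48.8% and 2.8% for KO, 50.8% and 17.2% for WT.
Egr2: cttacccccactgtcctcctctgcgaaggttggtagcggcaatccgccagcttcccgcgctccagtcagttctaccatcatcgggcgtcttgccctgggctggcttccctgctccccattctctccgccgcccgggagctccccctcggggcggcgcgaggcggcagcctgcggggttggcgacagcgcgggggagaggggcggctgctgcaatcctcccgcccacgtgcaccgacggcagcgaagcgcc
Egr4: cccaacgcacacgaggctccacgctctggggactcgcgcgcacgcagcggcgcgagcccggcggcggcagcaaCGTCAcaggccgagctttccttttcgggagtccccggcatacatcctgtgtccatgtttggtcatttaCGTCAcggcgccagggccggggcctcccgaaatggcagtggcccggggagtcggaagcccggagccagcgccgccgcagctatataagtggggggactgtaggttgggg
Nr4a1: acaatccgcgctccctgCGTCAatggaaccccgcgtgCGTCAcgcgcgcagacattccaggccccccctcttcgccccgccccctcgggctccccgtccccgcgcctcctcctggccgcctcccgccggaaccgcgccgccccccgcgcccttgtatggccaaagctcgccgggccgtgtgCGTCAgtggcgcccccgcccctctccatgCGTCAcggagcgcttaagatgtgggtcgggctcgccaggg
Nr4a2: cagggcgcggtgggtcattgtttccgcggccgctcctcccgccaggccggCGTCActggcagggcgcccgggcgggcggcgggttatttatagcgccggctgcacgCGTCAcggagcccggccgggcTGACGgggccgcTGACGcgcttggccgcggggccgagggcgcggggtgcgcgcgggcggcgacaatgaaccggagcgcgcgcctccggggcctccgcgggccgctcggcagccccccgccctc
Nr4a3: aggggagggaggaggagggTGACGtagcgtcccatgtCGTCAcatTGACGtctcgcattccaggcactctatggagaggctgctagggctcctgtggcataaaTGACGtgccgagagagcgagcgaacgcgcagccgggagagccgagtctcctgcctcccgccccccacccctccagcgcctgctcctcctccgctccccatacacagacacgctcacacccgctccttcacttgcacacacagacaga

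The motif occurred 4 times in each of the Nr4a1, Nr4a2 and Nr4a3 windows, 2 times in that of Egr4 and 0 times in the Egr2 window shown. Over 21263 upstream windows of the same length, 20.2% held at least 1 such motif, 4.85% at least 2 and 0.188% at least 4. All motifs were searched on both strands. The full CRE motif TGACGTCA, which holds the short one and was found in 1.92% of windows, was in none of the members' windows. Egr2 has 5 listed starts, and the windows of the 3 innermost, which overlap each other, held 2 short CRE motifs and 1 CArG box each. The window of the next Egr2 start outward held 1 CArG box and no short CRE motif. A CArG box was in 1.39% of all windows, and in none of those shown. The Nr4a1 window held the EGR binding motif GCGGGGGCG (3.41% of windows), while the other EGR motif GCGTGGGCG (0.720%) and the NR4A motif AAAGGTCA (1.20%) were in no member's window. These matches describe letters and not bound sites.

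CpG dinucleotides, which are dense at many Polycomb targets, were frequent with and without the mark. The printed windows held 26 CpGs in Egr2, 28 in Egr4, 34 in Nr4a1, 44 in Nr4a2 and 18 in Nr4a3, against a median of 10 over all windows. Egr2, without a peak, had more CpGs than 87.7% of windows, and Nr4a3, covered in every library, had more than 71.0%.

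The order of the genes by covered share of the body was alike in the 4 libraries. Averaged over them, Egr4 came first with 100% ± 0 (SD, n = 4 here), then Nr4a2 with 84.4% ± 3.72, Egr3 with 76.3% ± 8.36, Nr4a3 with 47.7% ± 17.0, Nr4a1 with 30.0% ± 19.3, Egr1 with 6.90% ± 13.2 and Egr2 with 0%. Within each library these 7 bodies had this same order, except that Egr1 and Egr2 were both at 0% in the KO libraries. The ranges of neighbours overlapped for Nr4a2 and Egr3, for Nr4a3 and Nr4a1, for Nr4a1 and Egr1 and for Egr1 and Egr2. They did not for Egr4 and Nr4a2, nor for Egr3, whose lowest library had 66.3%, and Nr4a3, whose highest had 65.4%. Bodies differ in length, from 2469 bp for Egr4 to 41370 bp for Nr4a3, so one peak weighs differently in each.

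**Figure D1:**
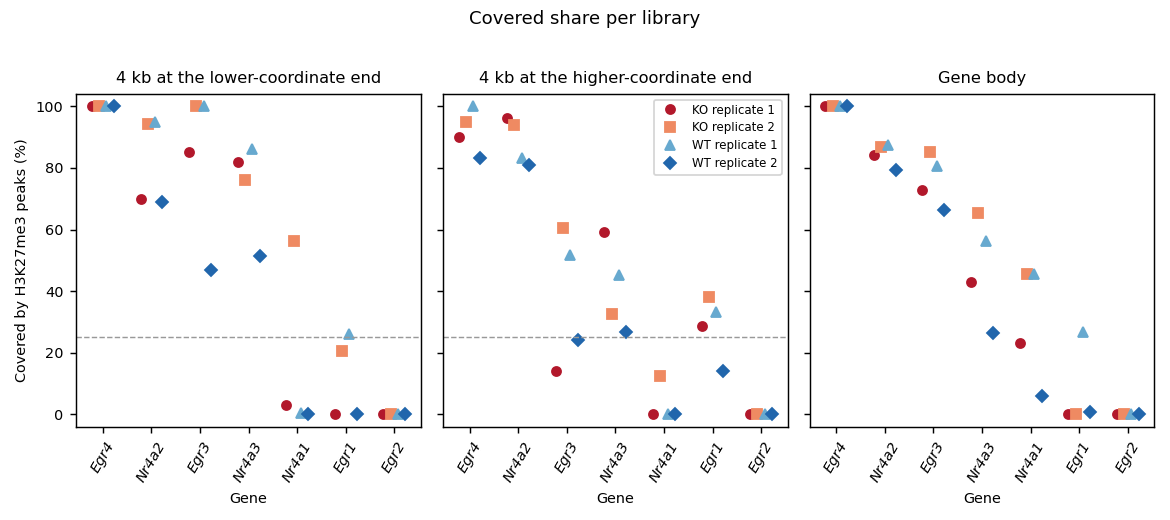
Share of the 4 kb window at the lower-coordinate end, of the 4 kb window at the higher-coordinate end and of the gene body covered by H3K27me3 peaks (vertical axis, %) for each gene, with 1 point per library and a dashed line at the 25% used to call an end marked. The Egr4 body and lower end sit at 100% and Egr2 at 0% in every library, while the other values spread by library, with WT replicate 2 lowest in the body of 4 of the 6 genes with any cover.

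Egr4 encodes the EGR factor best known from neurons and germ cells, and its body was the most fully marked. It lies at chr6:85511121-85513589 on the minus strand (gene ID 13656). A single peak spanned the whole body in each library, with a width of 5354 and 15872 bp for KO and 12003 and 6046 bp for WT. In all 4 lists this peak ranked among the highest by signal, above at least 97.5% of the peaks of its own list. Cover of the window at the start was 90.2% and 95.1% for KO, 100% and 83.3% for WT. WT replicate 1 was highest and WT replicate 2 lowest, so the genotypes overlapped. The mark ran on beyond the gene: a second stretch of 5671 bp, 7596 to 13266 bp downstream of the start, was covered in all 4 libraries. That stretch reaches the neighbour Fbxo41, 8126 bp away, whose body was covered to 57.8%, 82.5%, 61.7% and 34.0% (KO replicates 1 and 2, then WT replicates 1 and 2, the order of all such sets of values).

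Egr3, which acts with Egr2 in lymphocytes, had a peak over most of its short body. It lies at chr14:70077317-70082613 (gene ID 13655). Body cover was 72.8% and 85.2% in KO and 80.6% and 66.3% in WT. At the lower coordinate the window had a cover of 85.3% and 100% for KO, 100% and 46.9% for WT, where WT replicate 2 alone was low. In that library the peak over the body began 745 bp inside the gene, while in the others it began outside, at -432 to -3116 bp. A run of 3112 bp within the body was covered in all 4 libraries, which is 58.8% of the gene. Past the higher coordinate stood a further group of peaks in every library, of which a run of 2701 bp was shared by all 4. The nearest genes on both sides were unlike: Pebp4, 17398 bp below, was covered to between 28.8% and 64.5%, and Bin3, 17475 bp above, to at most 3.02%.

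Egr1, the EGR gene most often used as a marker of recent stimulation, had a nearly bare body. Only its higher-coordinate flank held peaks in every library. It lies at chr18:34861207-34864956 (gene ID 13653). No peak touched the body in KO. In WT replicate 1 a peak of 1041 bp lay from 40 bp outside to 1000 bp inside the lower end and covered 26.7% of the body, and in WT replicate 2 a peak beyond the higher end reached in to cover 0.907%. In KO replicate 2 a peak of 818 bp stopped 608 bp short of the lower end. Peaks wholly below the gene and within 20 kb were found in the KO libraries alone. In both WT libraries the nearest peak wholly below the gene was 134 kb away. By signal, these KO peaks ranked above 8.39% and 79.0% of the list in KO replicate 1. In KO replicate 2 they ranked above 12.6% to 82.7%. The share of all genes with such a split was not computed. Cover of the higher end was 28.7% and 38.1% for KO, 33.4% and 14.2% for WT, from a peak at or just beyond it. The segments covered in every library all lay above the higher end, and the longest was 995 bp, 16442 to 17436 bp from the lower coordinate. The WT replicate 1 peak over the body was higher in signal than 37.9% of its list. The neighbour Reep2, 13743 bp below, had a body cover of 0% and 8.41% in KO and 0% in both WT libraries.

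Egr2 was the only member without a peak anywhere in its body or in 20 kb to either side, in any library. It lies at chr10:67534469-67542188 (gene ID 13654). Such a bare locus was found for 22.5% of protein-coding genes, and a bare body for 36.9%. The stretch without peaks was long: in all 4 libraries it spanned 529 kb (chr10:67126738-67655460) and held 3 protein-coding genes, Nrbf2, Egr2 and Ado. By library, the gap around Egr2 measured 529 kb and 536 kb in KO and 595 kb and 722 kb in WT, against a median gap between peaks of 1850 to 2619 bp. Between 611 and 813 gaps in a list were longer. What part of that stretch could be measured, for example how much of it takes unique reads, was not tested.

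**Figure D2:**
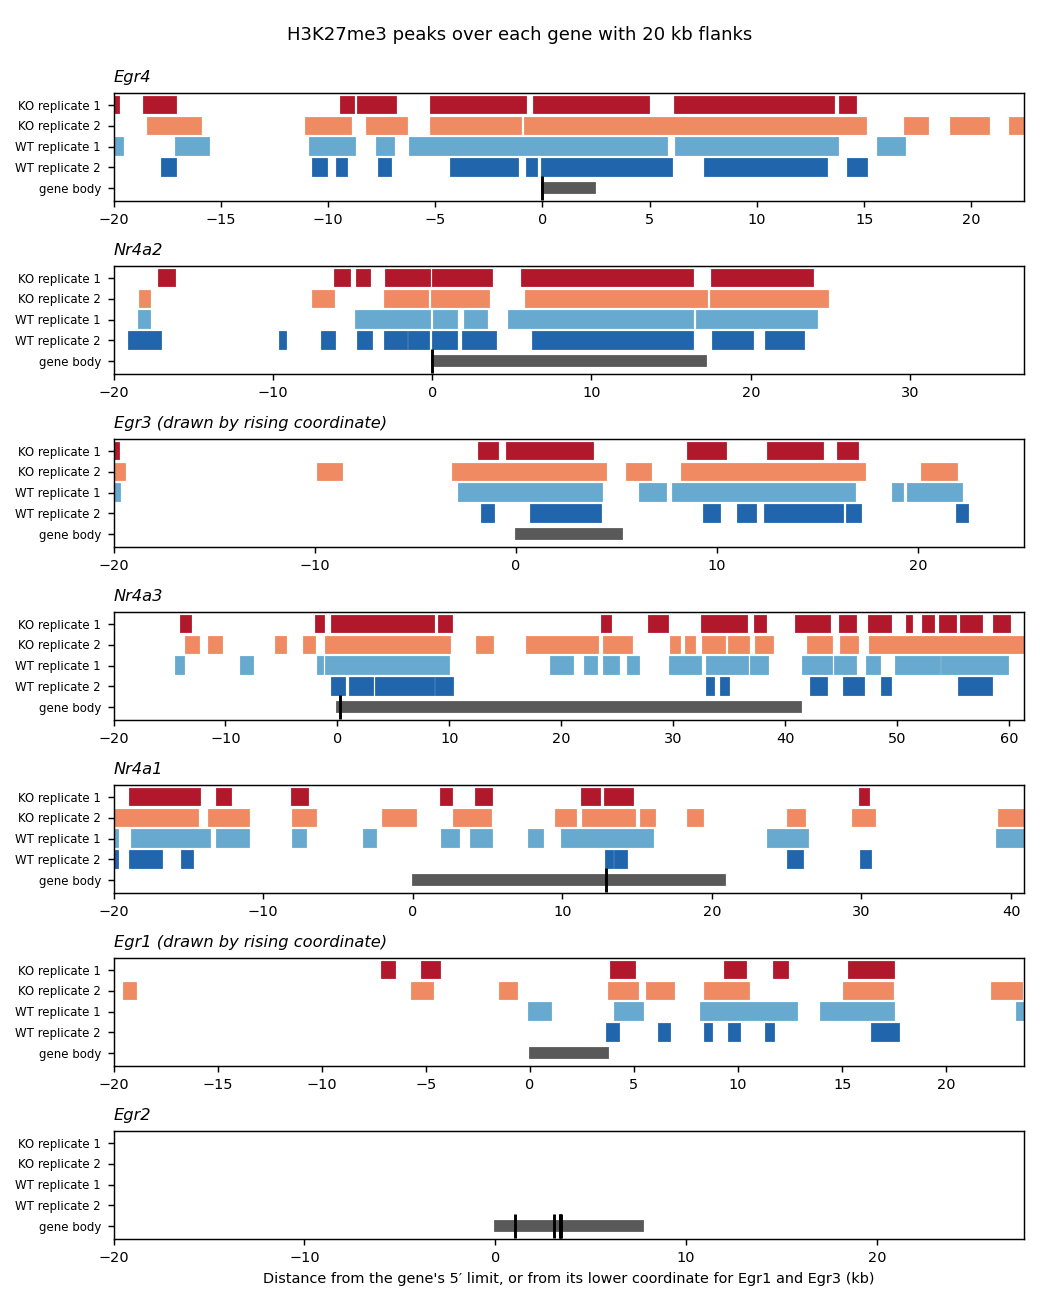
H3K27me3 peaks (bars, 1 row per library) over each gene with 20 kb to either side, by distance in kb from the gene's 5′ limit or, for Egr1 and Egr3, from its lower coordinate; the grey bar is the gene body and black ticks are RefSeq starts in the promoter table. Peaks fill the bodies of Egr4 and, mostly, Nr4a2, stand over the 5′ part of Nr4a3 and over Egr3, meet the inner start of Nr4a1 and are missing around Egr2.

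Nr4a2 encodes Nurr1, best known for its need in dopamine neurons, and was the most evenly marked of the NR4A genes. It lies at chr2:57106830-57124003 on the minus strand (gene ID 18227). Body shares were 84.3% and 86.7% for KO, 87.4% and 79.2% for WT, which overlapped. A run of 10039 bp, 6347 to 16385 bp downstream of the start, was covered in all 4 libraries, the longest such run at any member. The peak over it was 10039 to 11581 bp wide and was longer than at least 97.5% of the peaks of each list. At the start itself the mark dipped. In 3 libraries no peak lay between 124 to 208 bp upstream of it and 27 to 86 bp downstream, and in KO replicate 2 the downstream peak reached 6 bp upstream of the start and the next began at 250 bp. The predicted gene LOC105244150 overlaps this start and shares these peaks.

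At the 5′ end of Nr4a2 the 4 kb window had a cover of 96.1% and 93.9% for KO, 83.3% and 81.0% for WT. The KO libraries were both higher, also where the KO list was the narrower. In WT the mark downstream of the start was split by a gap that the KO peaks bridged. In the body 389 bp were covered in both KO and neither WT library, against 0 bp the other way round. With 20 kb flanks the counts were 389 bp and 280 bp. How often such stretches occur over all genes was not computed. The difference was 12.9 points (SE 4.15, 95% interval -0.475 to 26.3), with a limma adjusted p of 0.907 and an unadjusted p of 0.0545, the lowest of the members' gene ends. Centred on the RefSeq start, 1 bp away, and fitted with the other start windows, it had an interval of 1.34 to 24.5 and an unadjusted p of 0.0384 in limma, with an adjusted p of 0.890. The difference depended on the window: with 1000 bp to each side it was 1.13 points, and with 5000 bp it turned to -5.80.

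Nr4a3 encodes NOR-1 and is the longest member. It lies at chr4:48045078-48086447 on the plus strand (gene ID 18124). Peaks covered 43.0% and 65.4% of the body in KO and 56.2% and 26.4% in WT, in the order of the breadth of the lists. The cover was concentrated at the start. A peak of 9156 bp in KO replicate 1, and of 11068 and 10965 bp in the broad lists, began between -524 and -1040 bp from the 5′ limit and ended 8631 to 10027 bp inside, and in WT replicate 2 the same stretch was broken into 4 peaks. The listed start lay in a peak in all 4 libraries. Cover of the window at the 5′ limit was 81.9% and 76.0% in KO and 86.1% and 51.3% in WT, so the genotypes overlapped. The rest of the gene held scattered peaks, and of 41370 bases 23.7% were covered in all 4 libraries and 21.7% in none. Cover of the window at the 3′ limit was 59.2% and 32.5% in KO and 45.3% and 26.9% in WT. Just past that limit a run of 1466 bp, 42296 to 43761 bp from the 5′ limit, was covered in all 4 libraries. Further peaks followed in every library, and in KO replicate 2 a peak of 13907 bp began 6234 bp past the gene.

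Nr4a1, whose product is the reporter Nur77, was marked at an inner start and not at its outer limits. It lies at chr15:101253902-101274795 on the plus strand (gene ID 15370), and the start in the promoter table lies 12944 bp inside the annotated 5′ limit. That start lay within a peak in every library. A 4 kb window centred on it had a cover of 74.9% and 88.3% for KO, 100% and 30.9% for WT. The WT libraries stood at the top and the bottom and enclosed both KO values (difference 16.2 points, SE 29.6, limma adjusted p = 0.950). This window was chosen after the files were seen. The peak that held this start was modest in WT replicate 2, with 436 bp and a signal above 22.2% of its list, against 93.9% and 94.8% in the broad lists. A separate peak just downstream in WT replicate 2 had 799 bp and a signal above 28.0% of the list. At the outer 5′ limit cover was 3.0% and 56.2% in KO and 0.6% and 0% in WT, and KO replicate 2 alone was above 25%. Body cover was 23.0% and 45.5% in KO and 45.7% and 5.91% in WT. A stretch of 2007 bp upstream, -18775 to -16769 bp from the 5′ limit, was covered in all 4 libraries. Of its neighbours Smim41, 18367 bp away, had a body cover of 18.2% and 55.2% for KO, 67.8% and 0% for WT, and Atg101, an autophagy gene 9505 bp away, of at most 7.78%.

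The count of marked members moved with the breadth of the list. A marked end was found at 5 and 6 members in KO and at 5 and 4 in WT, against 33.9%, 46.7%, 41.1% and 26.9% of all genes. The same end was marked in all 4 libraries at 4 of 7 members, namely Egr3, Egr4, Nr4a2 and Nr4a3, against 24.3% of all genes. Egr2 alone had no marked end in any library, as had 48.9% of all genes. No member was marked in both libraries of 1 genotype and neither of the other, a pattern that 1.82% of genes had for KO and 0.315% for WT. With peak lists taken to equal covered length, 4 members were marked in each library.

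Genotype was tested for each window with limma over all protein-coding genes, and no member passed. Of 14 gene ends 12 had cover and were tested, and 0 passed at an adjusted p of 0.05, against 0.0% of 20791 ends tested; 0 had an unadjusted p under 0.05, against 3.9% of all. Of 6 bodies tested 0 passed, against 0.0145% of 13805, which are the olfactory receptor genes Olfr263 and Olfr694, and 0 had an unadjusted p under 0.05, against 1.91%. Among 6 loci with 20 kb flanks 0 passed either, against 0.0% of 16967, and 0 had an unadjusted p under 0.05, against 0.2%. The mean was higher in KO at 9 ends and lower at 2, with 69.8% of all tested ends higher. It was higher in KO at 4 bodies and lower at 1, with 71.9% of all bodies higher, and higher at 6 of 6 loci, with 80.0% of all loci higher. The groups did not overlap, with KO higher, at 2 ends, the start of Nr4a2 and the outer 5′ limit of Nr4a1, against 13.9% of all, and below at 0, against 2.46%. Over bodies the KO values lay below both WT values at 1 gene, Egr1, against 2.75% of all, and above at 0, against 12.3%. Over loci KO lay above at 0, against 9.84%, and below at 0, against 1.99%. The median difference over the 12 ends was 7.91 points, and 6.61 points over all ends tested.

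Among gene ends and bodies, intervals of the differences were narrowest at the Egr4 and Nr4a2 bodies, the Egr4 lower end and the Nr4a2 start. Over the Egr4 body the difference was 0 points with an interval of -2.95 to 2.95, and at the Egr4 lower end 0 points (-12.7 to 12.7). At both, all 4 libraries were at the ceiling of 100%, so this measure could not show a difference above it. The libraries had no spread there, so the width of these intervals came only from the spread that limma shares across features. At the Nr4a2 body the difference was 2.19 points (-10.95 to 15.3) and at the Egr3 body 5.51 points (-22.9 to 33.9). For the Nr4a3 body it was 12.9 points (-43.1 to 68.9), for the Nr4a1 body 8.46 points (-59.9 to 76.8) and for the Egr1 body -13.8 points (-52.4 to 24.8), which WT replicate 1 set, since without it the difference was -0.907. The Nr4a1 outer 5′ limit differed by 29.3 points, and by 2.70 without KO replicate 2. A shift of many points at these genes would not have been detectable with 2 mice per genotype. Without WT replicate 2 the difference became -2.05 points at the Nr4a3 body and -11.4 points at the Nr4a1 body.

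**Figure D3:**
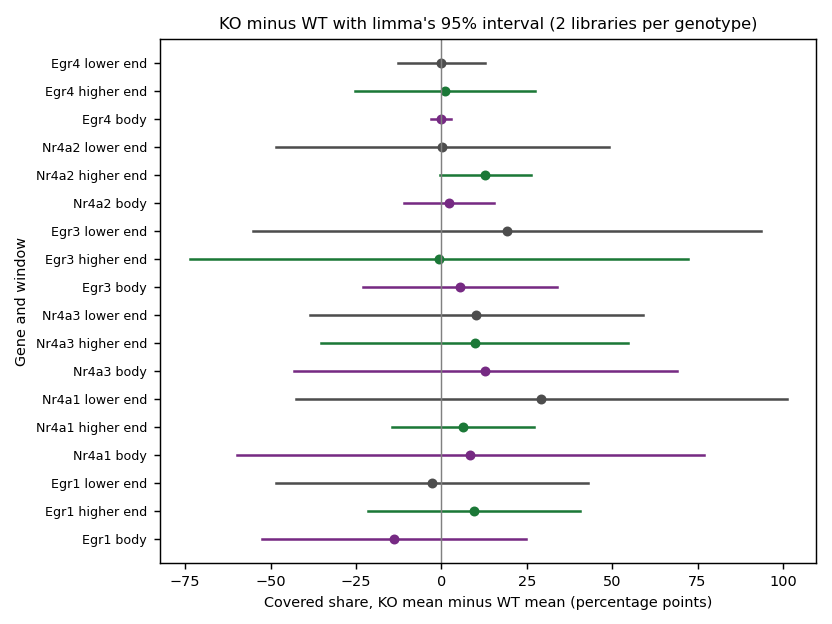
Difference in covered share, KO mean minus WT mean in percentage points, for each gene end and body with any cover, with limma's 95% interval as a line (2 libraries per genotype). Every interval includes 0, and the narrowest is that of the Egr4 body, where all 4 libraries were at 100%.

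Partners and relatives of the members also ranged from marked to bare. Rxra and Rxrb encode retinoid X receptors, which pair with some NR4A proteins. Of 5 partner genes, Rxra and Rxrb had a marked end in all 4 libraries. Rxrg and Nab1 had none, and Nab2, which like Nab1 encodes a corepressor that binds EGR proteins, was marked in KO replicate 2 alone, at 25.5% of its lower end; these 5 were named after their values were seen. Of 45 other nuclear receptor genes 31 and 36 were marked in KO and 35 and 25 in WT, or 68.9%, 80.0%, 77.8% and 55.6%. Among 40 other immediate early genes 20 and 26 were marked in KO and 20 and 15 in WT, or 50%, 65%, 50% and 37.5%. Over all genes the shares were 33.9%, 46.7%, 41.1% and 26.9%. The same end was marked in all 4 libraries at 15 of the 40, against 24.3% of all genes. Fos, Fosb, Fosl2, Jun, Arc and Npas4 were among these 15. No end was marked in any library at 14 of the 40, against 48.9% of all genes. Junb and Jund were among these 14 (all 8 genes were named after their values were seen).

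Genes of the antigen receptor pathway that leads to the members were marked at 5 and 15 of 30 in KO and 7 and 1 in WT, or 16.7%, 50%, 23.3% and 3.33%, against 33.9%, 46.7%, 41.1% and 26.9% of all genes. Those counts followed the breadth of the lists. None of the ends or bodies in these lists passed limma. In these lists an end was marked in both KO and neither WT at Maff, a small bZIP factor gene (52.0% and 69.8% against 17.7% and 0%), Ier5 (31.3% and 55.0% against 20.6% and 0%), Bcl10, an adaptor that carries the signal to NF-κB (28.9% and 46.6% against 19.4% and 14.9%), and Prkcb, a protein kinase C gene (26.6% and 37.5% against 12.6% and 0%). The limma adjusted p was 0.907 for each of them. They were 2 of 40 other immediate early genes and 2 of 30 antigen receptor pathway genes, against 1.82% of all genes. Among marker genes Ms4a1 (1 of 16 germinal center B) and Mzb1 (1 of 7 plasma cell) had the KO pattern. Ly6g (1 of 12 myeloid) had the WT pattern, against 0.315% of all genes. For these marker genes too the limma adjusted p was 0.907.

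**Figure D4:**
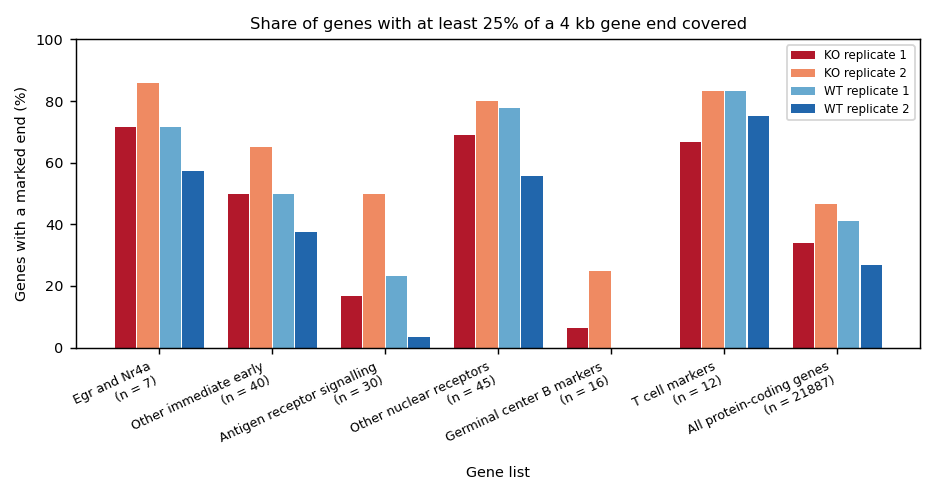
Share of genes (vertical axis, %) with at least 25% of a 4 kb gene end covered, for 6 gene lists and all protein-coding genes, with 1 bar per library and the number of genes under each list. In every list KO replicate 2 has the highest bar or shares it, and the Egr and Nr4a bars, from 57.1% to 85.7%, stand over few genes.

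For each member the genes with the most similar cover were found over 12 values, the shares of both ends and the body in 4 libraries. For Egr4 these were Sp6, Gm32436 and Oxct2b, at a root mean square difference of 1.83 to 2.45 points. Those nearest to Nr4a2 were Nbl1, Srcin1 and Atp6v1b1 (6.85 to 7.94 points), and to Nr4a1 Pcdhga8, Wdr88 and Pcdhga6 (6.90 to 8.52 points). Egr3 came closest to Cln8, Kcnk16 and Gkn1 (9.78 to 10.22 points), Egr1 to Anapc2, Mpzl3 and Adprhl2 (8.72 to 9.65 points) and Nr4a3 to Dmrtb1, Mapk11 and Lifr (10.3 to 12.1 points). Egr2 was tied with 7236 genes that had no cover in any of the 12 values. Between members the nearest were Egr4 and Nr4a2, at 16.5 points, and the farthest Egr2 and Egr4, at 97.5 points.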

How the data were processed

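Each library had 1 peak list, in which the authors deposited the position, total signal and highest signal of each peak, with no scale given. Per the submitters' processing notes, the tools were SEACR, deepTools, Bowtie2 2.4.2, SAMtools 1.11 and Trim Galore 0.6.6, and the build mm10. Their roles and the control and threshold of peak calling: not given in the sources used here. Signal served only to rank peaks within a list.

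Shares of windows covered by merged peaks were computed on RefSeq genes of GRCm38.p6: 4 kb at each gene end, the gene body, and the body with 20 kb flanks. KO and WT were compared with limma 3.58.1 (lmFit, eBayes) in R 4.3.3, with Benjamini-Hochberg adjustment over every feature with cover. The fit was also run on simulated shares. Their noise was smaller than the spread between libraries at many member windows, so that run does not show what the fit can detect in these data. Features without cover were left out. SD is between the libraries, 1 mouse each, whose number limits precision.

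The members and the gene lists were chosen with earlier results of these data known. Named are the members, their neighbours within 20 kb, listed genes marked in 1 genotype alone, features past limma and the 3 genes most like each member. Windows around RefSeq starts were added after the files were seen. Alternatives were other window sizes, stricter peaks, equal covered length, covered length as a covariate, no filter and leaving out each library. Covered shares came from Python 3.11.15 with pandas 2.3.3 and numpy 2.4.6.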

Additional observations from a re-analysis of the deposited data

How the results depend on the processing

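No paired analysis was possible because the labels carry no replicate numbers, and those used here follow the order of deposit and only name libraries. The 19 differences at members' gene ends, bodies and the inner Nr4a1 start were recomputed under the alternatives, which gave 169 values. Of these values 30 turned the direction and 139 did not. Part of the 139 could not turn. Dropping the filter leaves each difference as it was, and the Egr4 body and lower end differed by 0 points, without a direction. In the alternatives that kept all 4 libraries none passed the threshold. At equal covered length the turned differences were -7.09 points at the higher end of Egr1, 10.2 at its lower end and -4.81 at the Nr4a1 body. With covered length as a covariate they were -2.66 at the higher end of Egr4, -1.78 at the Nr4a1 body and -7.84 at the lower end of Nr4a2. With 1000 bp to each side Egr3 turned to 22.4 at its higher end and Egr4 to -1.18 at its start. With 5000 bp, Egr1 turned to 8.22 at its lower end, Egr3 to 3.60 at its higher end, Nr4a1 to -5.15 at its higher end and Nr4a2 to -5.80 at its start.

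Leaving out each library in turn gave ranges that crossed 0 at Egr1 (lower end, -15.8 to 10.2), Egr3 (body, -1.64 to 12.7; lower end, -7.38 to 45.8; higher end, -23.9 to 22.5) and the Egr4 start (-7.39 to 9.36). They also did at Nr4a1 (body, -11.4 to 28.4, and inner start, -18.4 to 50.7), Nr4a2 (body, -1.92 to 6.29, and lower end, -12.7 to 13.1) and Nr4a3 (body, -2.05 to 27.8; lower end, -7.18 to 27.7; higher end, -3.54 to 23.2). Without turning, the Egr1 body ranged from -26.7 to -0.907 (without WT replicate 1; -0.453 at equal covered length), the Egr1 higher end from 0 to 19.2 and the outer 5′ limit of Nr4a1 from 2.70 (without KO replicate 2) to 55.9. The Nr4a2 start stayed between 11.8 and 14.1. The lone library left in a genotype is then assumed to vary like the others. Of the turned values 9 came without WT replicate 2, and the cause was not tested.

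Calls over all genes also moved. With features of no cover included, limma called 27 gene ends, 8 bodies and 35 start windows, against 0, 2 and 0, and the cause was not tested. Body calls were 5 with the stricter peaks, 1 at equal covered length, and 0 with the covariate or without any 1 library (0 to 0). With the stricter peaks, those above the median total signal of a list, 30 and 32 peaks lay over the members in KO and 28 and 29 in WT, against 51, 56, 51 and 50, because fewer peaks are kept. Counts of marked members stayed within 1.5 times of the values reported under every alternative run. Read depth is unknown, so what it limits cannot be given.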
